A study of Eucalyptus globulus and Eucalyptus grandis with 36 samples.

Results

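Eucgr.A02818, Eucgr.A02821, Eucgr.A02824 and Eucgr.A02826 are 4 eucalypt genes that the deposited tables describe as C-repeat-binding factor 4. They are 4 of 11 genes with that description and 4 of the 11827 gene identifiers held by the tables. They were picked by identifier after the values of these tables were known, so their levels and differences are given as a description and no test was made on them. How these 4 were preferred over the other 7 is not recorded. Over the groups with a value, their group values span 6.79 to 8.70 on the log2 scale, and those of the other 7 span 3.09 to 5.42. The member with the narrowest span is Eucgr.A02821, at 6.79, and the widest span outside the 4 belongs to Eucgr.A02823, at 5.42. These spans do not rest on the same groups: Eucgr.A02830 has values in 4 groups and Eucgr.A02826 in 10. The lowest values were 0 for Eucgr.A02821 and Eucgr.A02826 and 0.52 for Eucgr.A02824, and 0 for Eucgr.A02823 outside the 4. Their spans thus depend on values at or near 0, and a wide span is not shown to set the 4 apart.

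C-repeat-binding factors, also called DREB1 proteins, are transcription factors of the AP2/ERF family that bind the C-repeat or dehydration-responsive element in the promoters of stress genes. The pathway is best known from Arabidopsis, where several of these factors are switched on within hours of a move to the cold and raise dehydrins, galactinol synthases and other cold-regulated genes. Arabidopsis CBF4 itself has been linked to drought and abscisic acid. The descriptions in the tables carry Arabidopsis names, and they do not show that a eucalypt gene has the role of its namesake.

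RNA was sequenced from whole stems of Eucalyptus globulus and Eucalyptus grandis, both grown for wood pulp, in 12 groups of 3 samples. In each species the treated groups were 10, 20 and 30 °C in elevated CO2 (700 ppm) and 10 and 30 °C in ambient CO2, and the control was 20 °C in ambient CO2. Per the protocols, seedlings 6 months old and raised from clonal seed spent 35 days in growth chambers at 10 to 12, 22 to 24 or 33 to 35 °C, with ambient CO2 at 390 ppm; the design text gives 400 ppm and an age of 35 days. Treatment was given by chamber, so chamber and treatment cannot be told apart, and no label tells whether a group's 3 samples came from different plants, so the authors' tests may rest on technical spread. No genotype, transgene or chemical agent is given for any group.

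The data were 8 tables, each limited to genes selected by the authors, with 1 normalised log2 value per gene and group. Each level is the authors' own figure for the 3 samples of a group, so neither SD nor n can be given with it, and the depth behind it is unknown. E. grandis at 20 °C in elevated CO2 has no column in these tables and was not analysed here. A gene counts as called if a table lists it and the 2 groups differed by at least 2-fold, which is 1 on the log2 scale. The 11 genes share a description and lie in 1 array with a few genes of other descriptions among them, so reads may be shared among them, and the value of any single gene is uncertain. Whether levels are scaled to gene length is not stated in the sources used here, so they are compared between groups only, never between genes. In whole stems, fewer cells of a type and less RNA per cell cannot be told apart.

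Of 48 possible values, 4 genes in 12 groups, the tables hold 34, and 2 of these are listed at 0. None of the 4 has a value in E. grandis at 20 or 30 °C in elevated CO2. Eucgr.A02818 also lacks E. globulus at 10 °C in elevated CO2 and E. grandis at 10 and 30 °C in ambient CO2. Eucgr.A02821 also lacks E. globulus at 10 °C in elevated CO2. Eucgr.A02824 also lacks E. globulus at 10 and 20 °C in elevated CO2. A missing value says that the gene was not selected in a table with that group, and not that its level was low.

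Eucgr.A02818 had normalised log2 values of 10.01 at 20 °C and 12.04 at 30 °C in E. globulus in elevated CO2. In E. globulus in ambient CO2 it had 9.32 at 10 °C, 8.27 at 20 °C and 12.89 at 30 °C. In E. grandis it had 5.95 at 10 °C in elevated CO2 and 12.26 at 20 °C in ambient CO2. Its highest values were thus in E. globulus at 30 °C in ambient CO2 and in the E. grandis control, and its lowest was in E. grandis at 10 °C in elevated CO2.

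Eucgr.A02821 had 0.56 at 20 °C and 2.58 at 30 °C in E. globulus in elevated CO2. In E. globulus in ambient CO2 it was listed at 0 at 10 °C and had 0.29 at 20 °C and 2.54 at 30 °C. In E. grandis it had 0.46 at 10 °C in elevated CO2, and in ambient CO2 it had 1.06 at 10 °C, 5.24 at 20 °C and 6.79 at 30 °C. Only the E. grandis groups at 20 and 30 °C in ambient CO2 exceeded every E. globulus value, and its other values were at or below 2.58.

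Eucgr.A02824 had 8.89 in E. globulus at 30 °C in elevated CO2, and 3.19 at 10 °C, 5.15 at 20 °C and 9.23 at 30 °C in ambient CO2. In E. grandis it had 0.52 at 10 °C in elevated CO2, and 0.96 at 10 °C, 6.22 at 20 °C and 6.21 at 30 °C in ambient CO2. In E. globulus the value was higher at each warmer temperature, and in E. grandis the values at 20 and 30 °C differed by 0.01.

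Eucgr.A02826 had values in 10 groups, the most of the 4. In E. globulus it had 4.97 at 10 °C, 6.58 at 20 °C and 8.38 at 30 °C in elevated CO2, and 3.56, 3.85 and 8.36 at the same temperatures in ambient CO2. In E. grandis it was listed at 0 at 10 °C in elevated CO2, and it had 1.02 at 10 °C, 5.30 at 20 °C and 6.51 at 30 °C in ambient CO2. The E. globulus values in elevated and ambient CO2 lay apart at 10 and 20 °C and were almost equal at 30 °C. Values in elevated CO2 are held only where the gene was at least 2-fold from the 20 °C control, which favours a gap at 10 and 20 °C. For none of the 4 genes can it be said which neighbours in these orders differ beyond replicate spread, because the tables hold no values per sample.

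**Figure D1:**
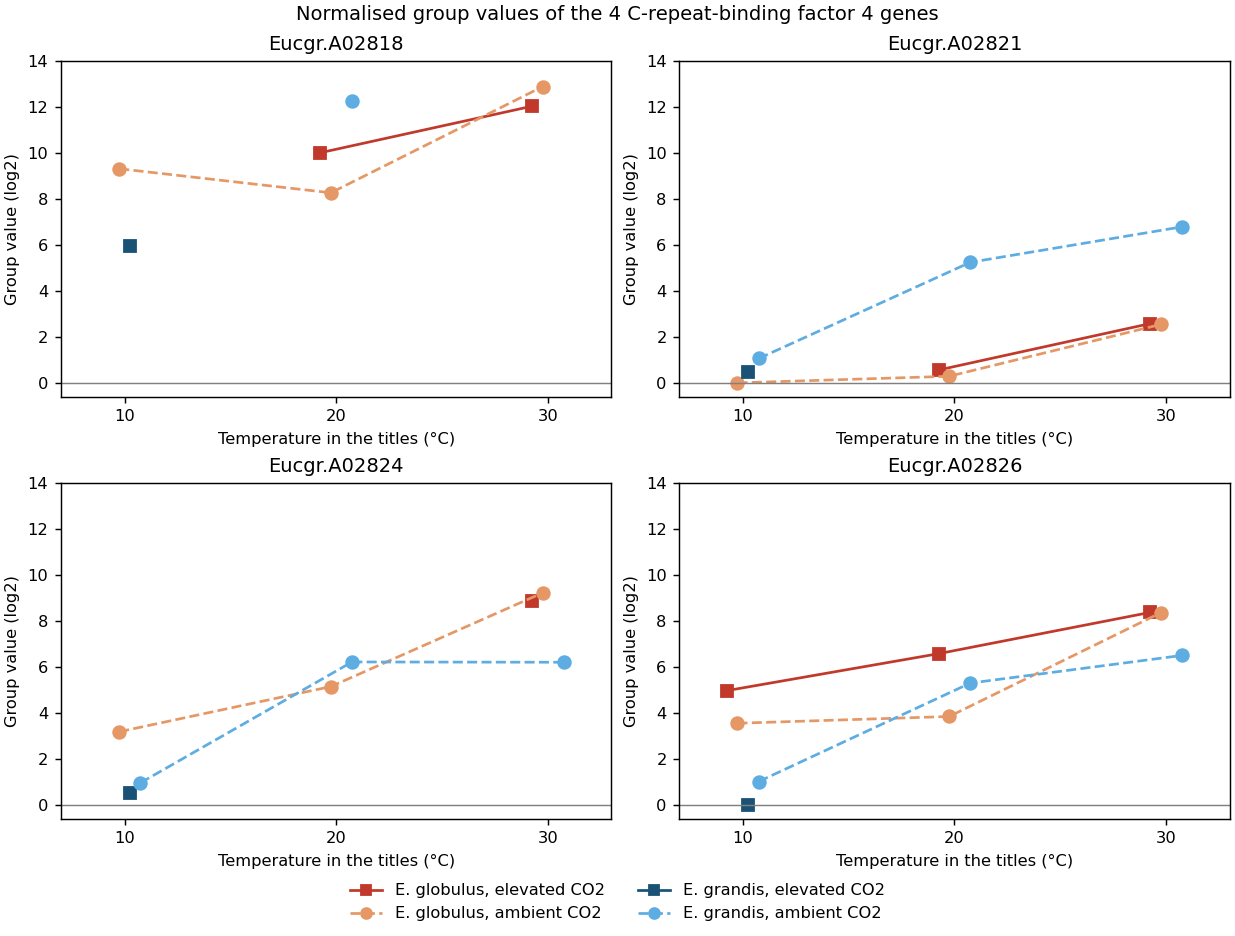
Normalised group value (log2, vertical axis) of each gene by the temperature in the sample titles (°C, horizontal axis), with squares for elevated and circles for ambient CO2, red shades for E. globulus and blue shades for E. grandis; points are shifted sideways for sight, lines join temperatures of 1 species and CO2 level, and missing points are groups with no value. All 4 genes have E. globulus values of 2.54 or more at 30 °C in ambient CO2, above the 20 °C control, and all values in E. grandis at 10 °C in elevated CO2 are at or below 5.95.

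In E. globulus at 30 °C in ambient CO2, all 4 genes were higher than in the 20 °C control. At least 2-fold higher were 4 of 4 genes in this comparison, in which 22.7% of the 11827 genes were called higher and 14.8% lower. These percentages, here and for each comparison, are shares of genes that the authors selected at least once, and the shares of listed genes beside them count the genes of that table alone. Of the 7453 listed genes, 36.0% were called higher. The difference was 4.62 on the log2 scale (24.5-fold) for Eucgr.A02818 and 4.52 (22.9-fold) for Eucgr.A02826. It was 4.08 (16.9-fold) for Eucgr.A02824 and 2.26 (4.78-fold) for Eucgr.A02821, whose control value of 0.29 is near the floor; with an offset of 1 on the linear scale its difference was 1.62. The other 7 genes with the same description were also all higher, by 2.26 to 3.30, with Eucgr.A02830 the highest and Eucgr.A02820 the lowest. The median difference over the 11 was 3.03 (8.17-fold), against 0.31 over all genes of that table.

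The 4 genes did not move together in E. globulus at 10 °C. Relative to the 20 °C control, 1 of the 4 was called higher and 1 lower, in a comparison where 17.1% of genes were called higher and 14.4% lower (27.1% and 22.8% of those listed). Eucgr.A02818 rose by 1.05 (2.07-fold), just past the threshold, and was under it at 0.98 relative to the median of the table; Eucgr.A02824 fell by 1.97 on the log2 scale (3.91-fold lower). Eucgr.A02826 differed by -0.29 and was not called, and Eucgr.A02821 was listed at 0 at 10 °C, against 0.29 in the control. Of the other 7 genes, 5 fell and 2 were under 2-fold, with Eucgr.A02822 the lowest at -1.72 and Eucgr.A02820 the highest at 0.12. The median of the 10 genes without a group at 0 was -1.37, against 0.07 over all genes of the table.

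Between 30 and 10 °C in E. globulus, 4 of 4 genes were higher at 30 °C, where 23.9% of genes were called higher and 18.4% lower (38.0% and 29.2% of those listed). Eucgr.A02824 differed by 6.04 (65.9-fold), the seventh largest rise among the 7453 genes of the table. Eucgr.A02826 differed by 4.81 (28.0-fold) and Eucgr.A02818 by 3.57 (11.9-fold). Eucgr.A02821 had 2.54 at 30 °C and was listed at 0 at 10 °C, so no fold is given. All 11 genes with the description were higher, with a median of 4.35 (20.3-fold) over the 10 without a group at 0, against 0.39 over all genes. These 3 comparisons share groups, and the authors selected genes over the 3 temperatures together and not for each pair.

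In E. grandis in ambient CO2, the 3 genes in the table of 3 temperatures were all lower at 10 °C than at 20 °C. At least 2-fold lower were 3 of 4 genes, in a comparison where 1.2% of genes were called higher and 2% lower; Eucgr.A02818 was not listed. Of the 547 listed genes, 26.0% were called higher and 43.1% lower. Eucgr.A02824 fell by 5.26 on the log2 scale (38.3-fold lower), Eucgr.A02826 fell by 4.28 (19.5-fold lower) and Eucgr.A02821 fell by 4.18 (18.2-fold lower). Their values at 10 °C, 0.96 to 1.06, lay near the floor. The other 5 listed genes of the description were lower too, so 8 of 8 were lower, with a median of -4.21 (18.5-fold lower) against -0.85 over all genes of the table. Eucgr.A02823 had the lowest difference of those 5, at -4.25, and Eucgr.A02820 the highest, at -1.85.

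At 30 °C in E. grandis, 2 of the 3 listed genes were higher than in the 20 °C control, where 0.854% of genes were called higher and 0.49% lower. Of the 547 listed genes, 18.5% were called higher and 10.6% lower, and their median difference was 0.27. Eucgr.A02821 differed by 1.54 (2.91-fold) and Eucgr.A02826 by 1.20 (2.30-fold), while Eucgr.A02824 differed by -0.01. Relative to that median Eucgr.A02826 differed by 0.93 and was no longer called. The 5 other listed genes were all under 2-fold, between -0.22 and 0.88. Between 30 and 10 °C, where 2.53% of genes were called higher and 1.45% lower, 3 of 3 listed genes were higher at 30 °C. Of all listed genes, 54.7% were higher and 31.4% lower, with a median of 1.13. The differences were 5.73 (53.0-fold) for Eucgr.A02821, 5.49 (44.8-fold) for Eucgr.A02826 and 5.25 (38.0-fold) for Eucgr.A02824, with 10 °C values near the floor. In these values the larger step lay between 10 and 20 °C in E. grandis and between 20 and 30 °C in E. globulus. That difference between the species was not tested, and it cannot be from these tables.

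**Figure D2:**
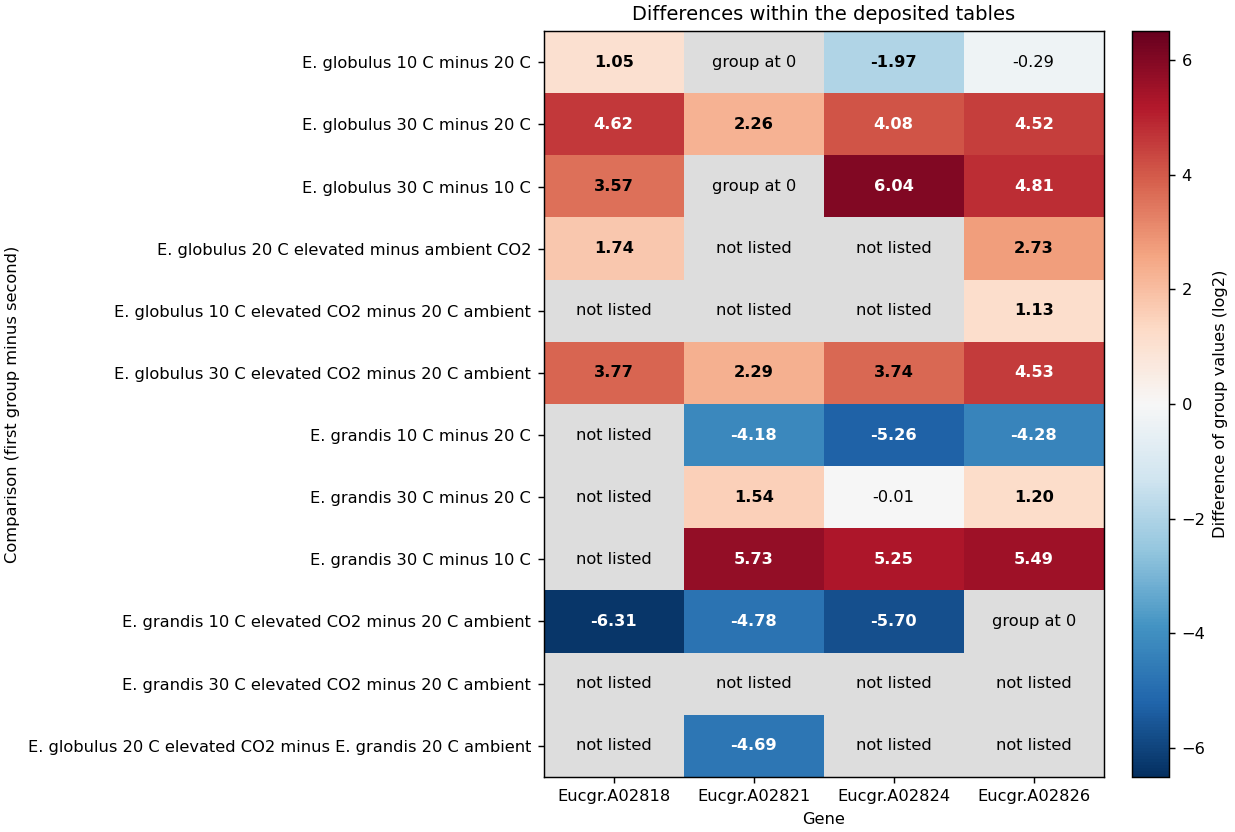
Difference of 2 group values (log2, colour and printed number; first group minus second) for each of the 4 genes (columns) in the 12 comparisons held within a table (rows), with bold numbers for at least 2-fold. Grey cells mark a gene that the table does not list, or a group listed at 0; the row of E. globulus at 30 °C minus 20 °C runs between 2.26 and 4.62, and that of E. grandis at 10 °C minus 20 °C between -5.26 and -4.18.

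Elevated CO2 was compared with ambient CO2 at a matched temperature within a table only for E. globulus at 20 °C. There 2 of the 4 genes were listed and both were higher, in a comparison where 3.31% of genes were called higher and 1.72% lower. Of the 595 listed genes, 65.7% were higher and 34.3% lower, with a median of 1.17. In the tables that hold only 2 groups no listed gene was under 2-fold. Such a median thus lies beyond 2-fold by selection and is no baseline. Eucgr.A02826 had 6.58 in elevated CO2 and 3.85 in ambient CO2, a difference of 2.73 (6.65-fold). Eucgr.A02818 had 10.01 in elevated CO2 and 8.27 in ambient CO2, a difference of 1.74 (3.35-fold), which was 0.58 relative to that median and then not called. Eucgr.A02821 was not listed, and its values from other tables, 0.56 in elevated and 0.29 in ambient CO2, differ by 0.27. Of the other 7 genes with the description 3 were listed, all higher, by 1.50 (Eucgr.A02832) to 1.71 (Eucgr.A02825). The median over the 5 was 1.71 (3.28-fold), against the 1.17 of all listed genes.

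At 30 and 10 °C the values in elevated and ambient CO2 come from separate tables and were set side by side with no test. At 30 °C in E. globulus, elevated minus ambient CO2 gave -0.85 for Eucgr.A02818, 0.04 for Eucgr.A02821, -0.34 for Eucgr.A02824 and 0.01 for Eucgr.A02826. Of the 3486 genes with both values, 16.7% were at least 2-fold higher and 8.61% lower. At 10 °C in E. globulus, Eucgr.A02826 had 4.97 in elevated CO2 and 3.56 in ambient CO2, a difference of 1.42 (2.68-fold). Of the 2555 genes with both values, 5.40% were at least 2-fold higher and 4.03% lower. Eucgr.A02826 was the member with values in elevated and ambient CO2 at all 3 temperatures of E. globulus. Its difference was 2-fold or more at 10 and 20 °C but not at 30 °C, and the selection of genes shapes this pattern. At 20 °C a 2-fold difference was itself the rule for listing. At 10 °C a gene listed as higher had to be at least 2-fold above the control, 3.85, and the ambient value, 3.56, was below that control. At 30 °C the rule sets no such bound, so no dependence of the CO2 difference on temperature can be read from these values. At 10 °C in E. grandis, elevated minus ambient CO2 gave -0.60 for Eucgr.A02821 and -0.44 for Eucgr.A02824. The values behind these, between 0.46 and 1.06, lie near the floor, so the differences are uncertain. Of the 259 genes with both values, 7.72% were at least 2-fold higher and 23.6% lower. Eucgr.A02826 was listed at 0 in elevated CO2 and had 1.02 in ambient CO2.

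Both treatments together were compared with the 20 °C ambient control, so these values carry temperature and CO2 at once, and they share that control with the comparisons above. In E. globulus at 30 °C in elevated CO2, 4 of 4 genes were higher than in the control, where 29.9% of genes were called higher and 16.2% lower (64.9% and 35.1% of those listed). The differences were 4.53 (23.1-fold) for Eucgr.A02826, 3.77 (13.6-fold) for Eucgr.A02818, 3.74 (13.4-fold) for Eucgr.A02824 and 2.29 (4.90-fold) for Eucgr.A02821. The last, with a control value near the floor, was 1.65 with an offset of 1 on the linear scale. Of the 11 genes with the description 10 were listed and all 10 were higher, with a median of 2.82 (7.04-fold) against 1.29 over all genes of the table.

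In E. globulus at 10 °C in elevated CO2, 1 of the 4 genes was listed, in a comparison where 15.8% of genes were called higher and 12.7% lower (55.5% and 44.5% of those listed). Eucgr.A02826 was higher than in the control by 1.13 (2.18-fold). The median over all genes of the table was 1.09, and relative to it Eucgr.A02826 differed by 0.03 and was not called. No listed gene was under 2-fold there, so that median lies beyond 2-fold by selection and is no baseline. Of the other 7 genes only Eucgr.A02822 was listed, and it fell by 1.39 on the log2 scale (2.63-fold lower). Within elevated CO2, with values from separate tables, Eucgr.A02826 differed by 3.40 (10.6-fold) between 30 and 10 °C. Of the 1403 genes with both values, 23.0% were at least 2-fold higher at 30 °C and 18.1% lower.

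In E. grandis at 10 °C in elevated CO2, 4 of 4 genes were lower than in the control, where 3.91% of genes were called higher and 9.2% lower (29.9% and 70.1% of those listed). Eucgr.A02818 had 5.95 in the treated group and 12.26 in the control, a difference of -6.31 (79.2-fold lower) and the second largest fall among the 1551 genes of the table. Eucgr.A02824 fell by 5.70 on the log2 scale (52.0-fold lower) and Eucgr.A02821 by 4.78 (27.5-fold lower). With an offset of 1 on the linear scale these differences were -4.96 and -4.03. Eucgr.A02826 was listed at 0 in the treated group, against 5.30 in the control. Of the other 7 genes with the description 5 were listed and all 5 were lower. The median over the listed genes without a group at 0 was -4.77 (27.4-fold lower), against -1.63 over all genes of the table.

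In E. grandis at 30 °C in elevated CO2, none of the 4 genes was listed, where 4.89% of genes were called higher and 3.43% lower. The authors' test gives no value for genes it did not list, so no count at an unadjusted p can be given. Of the other 7 genes, Eucgr.A02832 was listed, with 9.87 in the treated group and 7.70 in the control, a difference of 2.17 (4.49-fold).

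The species were set against each other within a table in 1 comparison, E. globulus at 20 °C in elevated CO2 against E. grandis at 20 °C in ambient CO2, in which species and CO2 differ together and the E. grandis group is the control used above. Of the 4 genes 1 was listed, where 7.11% of genes were called higher and 12.8% lower (35.8% and 64.2% of those listed). Eucgr.A02821 had 0.56 in E. globulus and 5.24 in E. grandis, a difference of -4.69 (25.7-fold lower), or -3.98 with an offset of 1 on the linear scale. The median over all genes of the table was -1.45. Eucgr.A02818 and Eucgr.A02826 were not listed by the authors, although the values of these 2 groups in other tables differ by -2.25 (4.75-fold lower) and 1.28 (2.43-fold higher in E. globulus). A difference of over 2-fold between group values was thus not enough for the authors to select those genes.

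Between the species at 1 temperature and in ambient CO2, the values come from separate tables and were not tested. Both species carry the same gene identifiers, and the sources used here do not name the genome that reads were aligned to. A difference between the species, here and above, may thus also carry how well the reads of each species match those gene sequences. That was not tested. At 20 °C, all 4 genes had lower values in E. globulus. The differences were -3.99 (15.9-fold) for Eucgr.A02818, -4.96 (31.1-fold) for Eucgr.A02821, -1.07 (2.10-fold) for Eucgr.A02824 and -1.45 (2.74-fold) for Eucgr.A02826. The E. globulus value of Eucgr.A02821, 0.29, is near the floor, so its fold is uncertain. At 30 °C, E. globulus minus E. grandis gave 3.02 (8.10-fold) for Eucgr.A02824, 1.86 (3.63-fold) for Eucgr.A02826 and -4.25 (19.0-fold lower) for Eucgr.A02821. At 10 °C, E. globulus minus E. grandis gave 2.22 (4.67-fold) for Eucgr.A02824 and 2.54 (5.80-fold) for Eucgr.A02826. The E. grandis values of these genes, 0.96 and 1.02, are near the floor. Eucgr.A02821 was listed at 0 in E. globulus and at 1.06 in E. grandis. All 4 genes thus had the lower value in E. globulus at 20 °C, and of the 3 with values at 10 and 30 °C only Eucgr.A02821 did. At 20 °C, 42.1% of the 2453 genes with values in both species were at least 2-fold lower in E. globulus and 18.2% higher, with a median of -0.61, and all 10 genes of the description with values were lower. At 10 and 30 °C, over 353 genes each, 22.1% and 19.5% were at least 2-fold lower and 14.2% and 12.5% higher. In elevated CO2 at 10 °C, Eucgr.A02826 had 4.97 in E. globulus and was listed at 0 in E. grandis. Of the 461 genes with both values there, 26.9% were at least 2-fold higher in E. globulus and 11.3% lower.

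The genes lie in 1 array, by the end positions in the files, which carry the sequence label pchr4 and no start, strand, exon or UTR; the sources used here do not name the genome build. The ends are at 38661883 for Eucgr.A02818, 38689645 for Eucgr.A02821, 38703834 for Eucgr.A02824 and 38717262 for Eucgr.A02826, a span of 55.4 kb. The other 7 genes of the description end between 38684593 and 38761895. Among or just beyond them are 2 genes described as C-repeat/DRE binding factor 1, Eucgr.A02831 and Eucgr.A02834, and Eucgr.A02833, which has no description. In E. globulus at 30 °C all of these were higher than in the control. At 10 °C in E. globulus the genes of the array did not all have the same sign, since Eucgr.A02818 was called higher and Eucgr.A02822 lower.

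**Figure D3:**
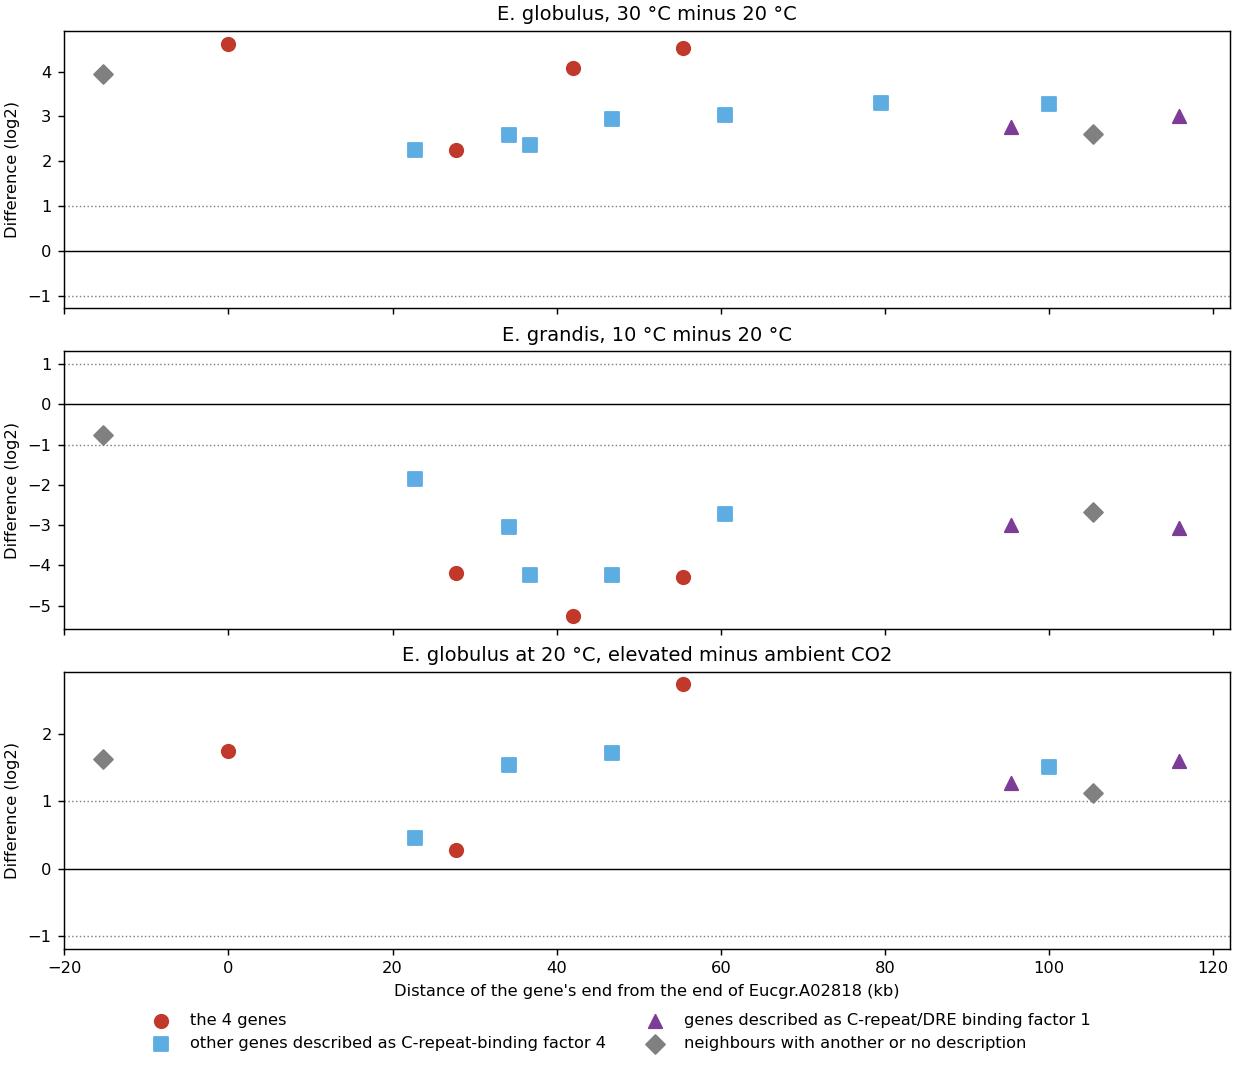
Difference of group values (log2, vertical axis) of each gene of the array by the distance of its end from the end of Eucgr.A02818 (kb, horizontal axis), for E. globulus at 30 °C minus 20 °C, E. grandis at 10 °C minus 20 °C, and E. globulus at 20 °C in elevated minus ambient CO2; dotted lines mark 2-fold. Red circles are the 4 genes, and in the lowest panel the points of Eucgr.A02820 at 0.46 and Eucgr.A02821 at 0.27 are values from other tables, since the authors did not list these genes there.

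Over the groups with values for both, Eucgr.A02824 and Eucgr.A02826 were alike (Pearson's r = 0.983, 8 groups). Eucgr.A02821 was least like them, with r = 0.494 with Eucgr.A02824 over 8 groups and r = 0.456 with Eucgr.A02826 over 9 groups. Its closest match among the genes of the description was Eucgr.A02820 (r = 0.945, 8 groups). The points of these correlations are group values that share plants and libraries and may share reads, and the r values are a description.

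Among genes whose description does not name a C-repeat factor, those with the pattern most like each member were found by Pearson's r. It was taken over the groups in which that member had values. For Eucgr.A02818, over 7 groups and 242 candidate genes, the closest were Eucgr.A02817 (r = 0.995), Eucgr.G03040 (r = 0.992) and Eucgr.F03632 (r = 0.989). Eucgr.A02817 is described as an integrase-type DNA-binding superfamily protein and ends 15.3 kb before the end of Eucgr.A02818. Eucgr.G03040 is described as an ortholog of sugar beet HS1 PRO-1 2 and Eucgr.F03632 as calmodulin like 37. For Eucgr.A02821, over 9 groups and 49 candidates, the closest were a sialyltransferase family gene, Eucgr.B03872 (r = 0.960), an exocyst subunit exo70 H7 gene, Eucgr.B02411 (r = 0.950), and a cupin gene, Eucgr.J02083 (r = 0.914). For Eucgr.A02824, over 8 groups and 84 candidates, they were Eucgr.C03715, oxidative stress 3 (r = 0.988), Eucgr.H00103, a self-incompatibility protein S1 family gene (r = 0.980), and Eucgr.K02905, a nucleoside triphosphate hydrolase gene (r = 0.977). For Eucgr.A02826, over 10 groups and 18 candidates, they were Eucgr.I01393, a DnaJ-domain chaperone gene (r = 0.922), Eucgr.C03715 (r = 0.886) and Eucgr.L02592, a polyketide cyclase family gene (r = 0.751). Candidates had to be selected by the authors in the same tables, so few genes were compared. They were set apart by description alone. Eucgr.A02817 may thus be a relative of these factors, and reads may be shared with it too. By Spearman's rho, with ties put in order of gene identifier, the 3 genes named rank 15, 41 and 6 for Eucgr.A02818. The ranks are 3, 22 and 7 for Eucgr.A02821, 5, 12 and 9 for Eucgr.A02824, and 2, 1 and 3 for Eucgr.A02826. Over so few groups rho values tie, so these ranks follow identifier order in part. Eucgr.F03632, at rank 6, has a rho of 1, which no gene can exceed, and Eucgr.A02817 and Eucgr.G03040 share 0.964. Only for Eucgr.A02826 did both measures give the same 3 genes.

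The pathway around these factors was described with 3 further lists made from the descriptions in the tables. Upstream regulators hold 15 genes whose Arabidopsis namesakes, or close relatives of these, act on C-repeat-binding factors. Targets hold 41 genes named for cold-regulated proteins, dehydrins, other proteins induced early by dehydration and enzymes of raffinose sugars. The word targets is only a label for this list, since its genes were picked by description. Whether C-repeat-binding factors act on any of them, or on their Arabidopsis namesakes, was not tested. Other DREB and related AP2 factors hold 8 genes. List members not in a table have no value there.

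In E. globulus at 30 °C, where the 4 genes were higher, 24 of the 32 listed genes of the targets list were called higher and 1 lower. Whether the 4 genes act on any of these was not tested. The median of the targets was 2.29, against 0.31 over all genes of the table. Of all listed genes there, 36.0% were called higher and 23.4% lower. Eucgr.L00235, a galactinol synthase 2 gene for the first step of raffinose sugar synthesis, had 6.12 at 30 °C and 1.83 in the control (19.7-fold). Eucgr.I02392, described as dehydrin xero 1, a protein class that protects cells as they dry, had 9.26 at 30 °C and 5.23 in the control (16.4-fold). Of the 8 other DREB and related factors, 6 were called higher and 1 lower. They were led by Eucgr.H04892, related to AP2 6l, with 7.96 at 30 °C and 2.43 in the control (46.4-fold), and Eucgr.F02319, related to AP2 1, with 9.06 at 30 °C and 4.37 in the control (25.8-fold). Of 12 listed upstream regulators, 5 were called higher and none lower. The 2 with the largest differences were an ethylene induced calmodulin binding protein gene, Eucgr.L00520, at 1.78 (3.44-fold), and a myb domain protein 15 gene, Eucgr.H00158, at 1.64 (3.11-fold). The first belongs to a family of activators of C-repeat-binding factors in Arabidopsis, and MYB15 is a repressor of them there.

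The lists went different ways in E. globulus at 10 °C. Of 32 listed targets, 3 were called higher and 9 lower, with a median of -0.54 against 0.07 over all listed genes. Of all listed genes, 27.1% were called higher and 22.8% lower. Eucgr.I02392 was the furthest above the control, with 9.49 at 10 °C and 5.23 in the control (19.2-fold), and Eucgr.L00250, a galactinol synthase 2 gene, fell by 1.67 on the log2 scale (3.18-fold lower). All 6 called genes of the 8 other DREB and related factors were higher, with Eucgr.H04892 at 5.64 (49.7-fold) and Eucgr.F02319 at 4.75 (26.9-fold). Of 12 upstream regulators, 7 were called higher and 2 lower. Eucgr.K03262, a myb domain protein 15 gene, had 8.49 at 10 °C and 4.61 in the control (14.7-fold), and Eucgr.L00520 had 9.81 at 10 °C and 6.83 in the control (7.86-fold). Thus 6 of the 8 other DREB and related factors were called higher at each of the 2 temperatures, while of the 4 genes 1 was called higher at 10 °C and 4 at 30 °C.

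In E. globulus at 30 °C in elevated CO2, 21 of the 26 listed targets were called higher and 5 lower. Every gene listed in this comparison was called, 64.9% higher and 35.1% lower. Eucgr.I02392 had 11.00 in the treated group and 5.23 in the control (54.5-fold), and Eucgr.F00223, cold regulated gene 27, had 6.07 in the treated group and 10.78 in the control (26.2-fold lower). Of the other DREB and related factors, 5 were listed and all 5 were higher, again led by Eucgr.H04892 (31.6-fold) and Eucgr.F02319 (8.03-fold). Of 6 upstream regulators, 4 were higher and 2 lower, with the clock gene pseudo-response regulator 5, Eucgr.A01405, 5.14-fold lower and a myb domain protein 15 gene, Eucgr.B02144, 3.81-fold higher. With elevated CO2 at 20 °C alone, 1 target was listed and it was lower, the galactinol synthase 2 gene Eucgr.L00251 at -1.37 (2.59-fold lower). No upstream regulator or other DREB factor was listed there, and of all listed genes 65.7% were higher and 34.3% lower.

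Of the targets, 12 were listed in E. globulus at 10 °C in elevated CO2, 3 higher and 9 lower. All 5 listed DREB and related factors were higher. Of all genes listed there, 55.5% were higher and 44.5% lower. Of 8 upstream regulators, 7 were higher and 1 lower. The largest differences were 4.40 (21.2-fold) for Eucgr.K03262 and 2.80 (6.97-fold) for Eucgr.A00998, phytochrome interacting factor 3-like 1. In that group Eucgr.H04892 was 58.1-fold and Eucgr.F02319 18.6-fold higher than in the control. Of the targets, Eucgr.I02392 had 7.23 in the treated group and 5.23 in the control, and the galactinol synthase 2 gene Eucgr.L00248 was 3.45-fold lower.

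In E. grandis few pathway genes were listed. At 10 °C in ambient CO2, 5 targets were listed, 3 higher and 2 lower, where 26.0% of listed genes were called higher and 43.1% lower. The galactinol synthase 2 gene Eucgr.B03987 was higher by 2.96 (7.78-fold) and the raffinose synthase gene Eucgr.J02233 by 2.48 (5.56-fold). Both listed DREB and related factors, the AP2 4 genes Eucgr.F00497 and Eucgr.F02440, were lower, with differences of -1.41 (2.66-fold) and -1.17 (2.25-fold). At 10 °C in elevated CO2, the same AP2 4 genes were 7.46-fold and 3.11-fold lower, and the upstream regulator that was listed, Eucgr.K03262, had 6.69 in the treated group and 4.29 in the control (5.25-fold). Of 3 listed targets there, 1 was higher and 2 were lower, the galactinol synthase 2 genes Eucgr.B01791 (7.14-fold lower) and Eucgr.B01793 (5.84-fold lower). Of all genes listed in that comparison, 29.9% were higher and 70.1% lower. At 30 °C in elevated CO2, where none of the 4 genes was listed, Eucgr.F00223 was 51.7-fold lower and Eucgr.A01405 5.67-fold lower than in the control, and the raffinose synthase gene Eucgr.K02813 was 4.85-fold higher.

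**Figure D4:**
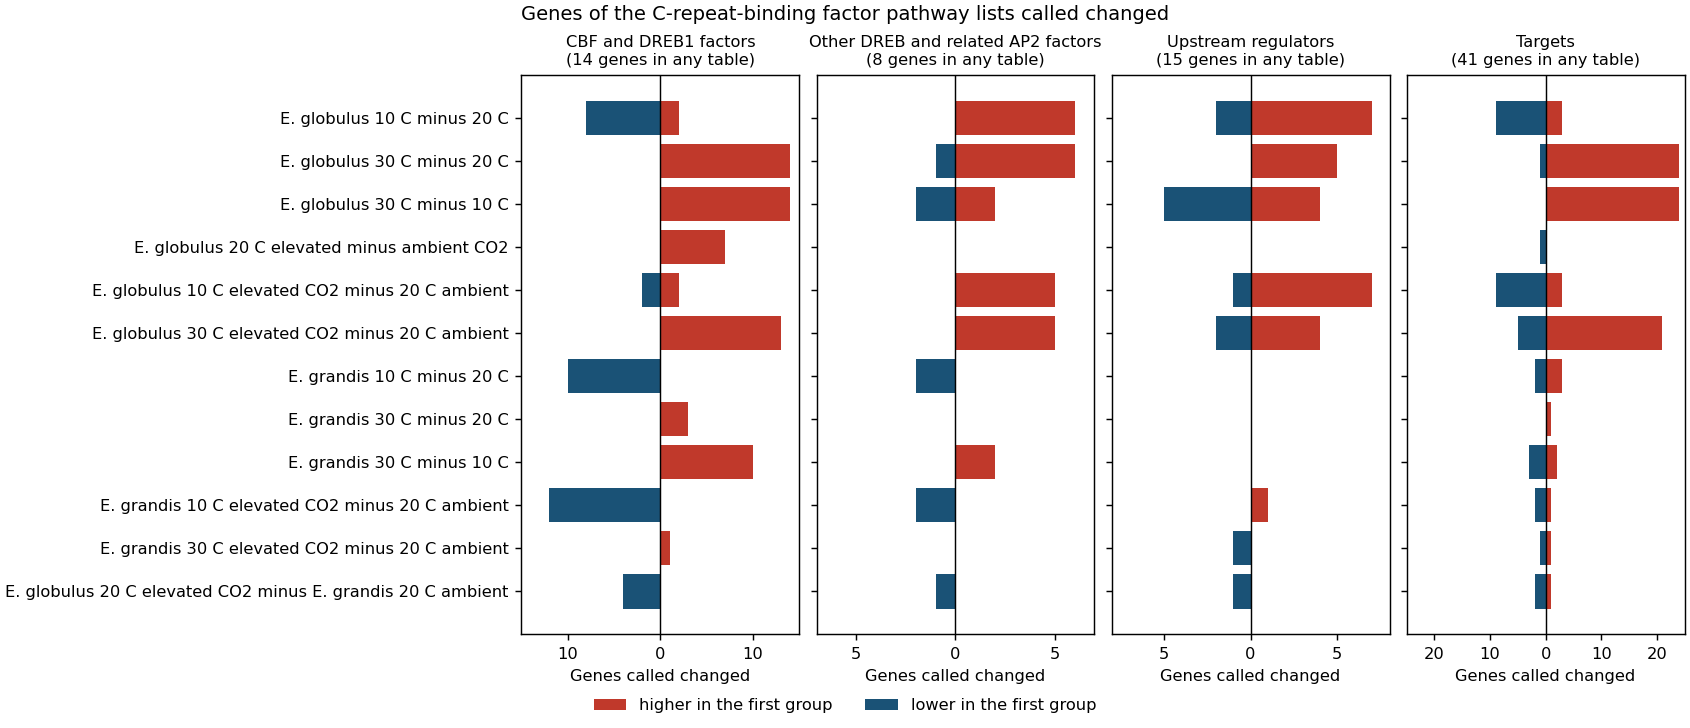
Number of genes called changed (horizontal axis) in each of 4 pathway lists (panels) for the 12 comparisons within a table (vertical axis), with red bars to the right for genes higher in the first group and blue bars to the left for genes lower in it; the panels have different scales. The first panel holds the 11 genes of the description, 2 described as C-repeat/DRE binding factor 1 and 1 as factor 2. In E. globulus at 30 °C minus 20 °C all 14 are higher, as are 36.0% of all listed genes. In E. grandis at 10 °C minus 20 °C the 10 listed are lower, as are 43.1% of all listed genes.

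The labelled tissue was stem, and the markers looked for were partly found. Genes described as phloem protein 2 numbered 19 and as laccases, named for lignin in xylem, 50. Sieve element occlusion, cellulose synthase A4 and histone H4 matched no description in the tables, and the word cyclin matched 20, cycling DOF factors among them. The laccases also moved with temperature in E. globulus. Of 37 listed, 8 were higher and 21 lower at 30 °C than at 20 °C, with summed levels of 14.43 at 30 °C and 14.06 at 20 °C on the log2 scale, and 19 were higher and 1 lower at 10 °C, with a summed level of 15.01. Of these 37, Eucgr.B01273 was listed at 0 at 30 °C, and Eucgr.F02651 and Eucgr.G00841 at 20 °C. Of 10 listed phloem protein 2 genes, 2 were higher and 4 lower at 30 °C than at 20 °C, with summed levels of 8.41 at 30 °C and 8.96 at 20 °C, and none was at 0. At 10 °C, 1 was higher and 1 lower, with a summed level of 8.90. Of 15 listed genes with the word cyclin, 3 were higher and 9 lower at 30 °C than at 20 °C, and 4 were higher and none lower at 10 °C. Of all listed genes in E. globulus, 36.0% were called higher and 23.4% lower at 30 °C, and 27.1% and 22.8% at 10 °C. In E. grandis 3 laccases were listed, all higher at 10 °C than at 20 °C, as were 26.0% of all listed genes. The summed levels of these laccases were 11.09 at 10 °C and 9.20 at 20 °C. The part of the markers in the differences of the 4 genes was not tested.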

How the data were processed

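The submitters' processing notes name Bowtie2 and DESeq, without version or role; the sources used here name no build and no counting rule. Per the file headers, the authors deposited normalised values per group in log2 units, and the lowest value is 0. The deposited log2 fold change and fold (ratio) columns equal the difference of group values within 0.0001, which was checked. Of the 8 tables, 6 rest on the authors' moderated test of 2 groups and the other 2 on a one-way test across 3 temperatures, at a corrected p of 0.05 and a fold of at least 2, per the file headers. No value or p-value per gene and sample is held, so depth is unknown and no test was run.

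Differences of group values were computed with Python 3.11.15, pandas 2.3.3 and numpy 2.4.6, on steps checked on simulated data. A value repeated across tables never differed (8144 compared, tolerance 0.0001). The 1 table whose name pairs E. grandis with itself holds columns for E. globulus in elevated CO2 and the E. grandis control, and was used by its columns. Members, lists and naming rules were chosen with earlier results of these data known. The text names all 4 members, the highest and lowest other gene of the description, the 2 list members with the largest called differences, leaving out those with a group at 0, and the 3 described genes most like each member. Alternatives were another fold, a linear offset of 1, differences relative to the median of all listed genes, the deposited fold column, and Spearman's rho.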

Additional observations from a re-analysis of the deposited data

How the results depend on the processing

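All 30 member differences without a group at 0 kept their call with an offset of 1 on the linear scale, though the offset moved 5 of them by over 1.5 times. The deposited fold column equals these differences, so it could not change a call. At 4-fold, 6 lost the call, and 4 lost it relative to the median of all listed genes; none changed sign. In E. globulus at 10 °C against 20 °C, 0 of the 4 genes were higher and 0 lower at 4-fold, as were 0 and 0 of the 11 described genes, and relative to the median 0 were higher in either list. For elevated CO2 at 20 °C in E. globulus, 1 gene of either list was higher at 4-fold, and 1 relative to the median. For 10 °C in elevated CO2 against the E. globulus control, 0 of either list were higher under either setting and 0 of the 11 lower at 4-fold. For 30 °C in elevated CO2, 6 of the 11 were higher relative to the median. For E. grandis at 30 °C against 20 °C, 0 of either list were higher at 4-fold and 1 relative to the median. For E. globulus in elevated CO2 against E. grandis, 1 of the 11 was lower relative to the median. Over these counts and the pathway lists, 40 counts moved by over 1.5 times at 4-fold and 30 did not. The cause was not tested. The tables list selected genes, so their median is not that of all genes. Those that hold only 2 groups list no gene under 2-fold. A call lost relative to their median thus follows in part from that selection. Leaving out replicates was not run, and depth cannot be judged. No paired analysis was possible because the tables hold 1 value per group and none per sample.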

Other observations

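Another 2 genes near the 4 in name or place were chosen after their values were seen and are given as values. Eucgr.D01925, described as C-repeat/DRE binding factor 2 and lying outside the array, had log2 group values of 8.37 at 10 °C, 8.47 at 20 °C and 10.61 at 30 °C in E. globulus in elevated CO2. The value at 10 °C was 2.34-fold above the control. In ambient CO2 it had 8.74 at 10 °C, 7.14 at 20 °C and 11.42 at 30 °C in E. globulus, so it was 3.03-fold higher at 10 °C and 19.4-fold higher at 30 °C than in the control. In E. grandis it had 7.43 at 10 °C in elevated CO2 and 10.98 in the control, an 11.7-fold lower value in the treated group. Like Eucgr.A02818, it was called higher at both 10 and 30 °C in E. globulus.

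Eucgr.A02817, described as an integrase-type DNA-binding protein and ending 15.3 kb before the end of Eucgr.A02818, had 9.22 at 10 °C, 8.18 at 20 °C and 12.14 at 30 °C in E. globulus in ambient CO2. In E. grandis it had 6.97 at 10 °C in elevated CO2, and 10.73, 11.51 and 12.71 at 10, 20 and 30 °C in ambient CO2. Eucgr.A02818 has no value in E. grandis at 10 and 30 °C in ambient CO2, so the 2 genes cannot be compared there.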
